A study of Homo sapiens with 12 samples.

Results

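The distal long arm of human chromosome 12 carries a run of neighbouring genes whose RNA was low in IRAK4 knockout THP-1 cells. The 38 genes described here lie on that run, from the start of LEMD3 at 65169583 to the end of SELPLG at 108633894 (chromosome 12, GRCh38). They are 38 of the 30017 gene symbols in the count table, and all 38 had enough counts to be tested. They were selected on their low counts in knockout relative to wild-type cells, so those values are given as a description, with no test. The same stretch holds 139 tested genes in all, 101 of them outside the 38.

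THP-1 is a long-established human cell line from a monocytic acute myeloid leukaemia. PolyA RNA was sequenced in 12 libraries, 3 in each of 4 groups: IRAK4 knockout (KO) cells with 50 nM CC-885 for 12 h, wild-type (WT) cells with the same drug, KO cells with the solvent DMSO, and WT cells with DMSO. Per the labels, both genotypes carry Cas9, the KO cells also a guide RNA against IRAK4, and cells were expanded from single cells and screened by PCR and Sanger sequencing. The number of clones behind each genotype is not stated, so the knockout and the history of a clone cannot be told apart. Nothing says that the 3 replicates were separate cultures, so the p-values cover no more than the spread among libraries, which may be technical. CC-885 is a cereblon ligand that directs the translation termination factor GSPT1 to degradation, and IRAK4 is the kinase through which Toll-like and interleukin-1 receptors signal.

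The 38 genes are joined by position and not by function. Genes that lie side by side can be lost, gained or silenced together in a cultured cancer line, because copy number and large chromatin domains act on stretches of a chromosome. Many of the products on this stretch work as subunits of larger assemblies, among them the chaperonin that folds actin and tubulin, the nuclear pore scaffold, the RNA deadenylase complex and the ring that holds spliceosomal small RNAs. Others are products of myeloid cells: lysozyme (LYZ), the leukotriene enzyme LTA4H, and SELPLG, the leukocyte ligand of P-selectin.

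Library totals ranged from 46903984 to 56675539 counts. Levels are CPM values, that is counts scaled to a common library total with edgeR's TMM factors, and log2 fold changes, printed with their SE for the main results, come from edgeR's quasi-likelihood test with Benjamini-Hochberg adjustment over 16010 genes. The word called marks an adjusted p under 0.05. IRAK4 RNA was at 31.7, 30.8 and 29.6 CPM in KO cells with CC-885, against 65.4, 69.4 and 83.6 CPM in WT cells with CC-885. Under DMSO it was at 7.28, 8.72 and 8.78 CPM in KO cells, against 53.9, 50.9 and 51.6 CPM in WT cells, so every KO library fell below every WT library. Of the 12 monocytic markers, 12 had counts, and their summed level was 4029 to 4155 CPM in KO and 2299 to 2684 CPM in WT cells with CC-885, and 8168 to 9226 CPM in KO and 3830 to 3986 CPM in WT cells with DMSO. The summed T and NK cell markers stayed under 21 CPM in each library with CD3E and CD3G at 0, the B cell markers under 4 CPM with MS4A1 at 0, and the erythroid markers under 1 CPM. In the list of epithelial, stromal and endothelial markers KRT19 and COL1A2 were at 0, and its sum of 92.5 to 460 CPM across libraries was nearly all PECAM1. In bulk RNA, fewer cells of a type and less RNA per cell cannot be told apart. Replicate 3 of WT cells with CC-885 stood apart: the chi-square per degree of freedom between its counts and those of the other replicates was 76.1 and 62.3, against 4.10 to 21.0 for every other pair within a group. Its library name begins with 52, as do those of replicate 3 of KO and replicates 2 and 3 of WT cells with DMSO. All other library names begin with 51, so the prefixes are not balanced over the groups.

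The promoters of RAP1B, SCYL2 and BTG1 are shown because these genes rose under CC-885 in both genotypes, and because the cyclic AMP response element (CRE, TGACGTCA) is present in RAP1B and SCYL2 and not in BTG1. The letters are the 250 bases before each gene's start from RefSeq (GRCh38.p14), 5′ to 3′ on the gene's strand, with the CRE in capitals. RAP1B is chr12:68610649-68610898 on the plus strand, SCYL2 is chr12:100266927-100267176 on the plus strand, and BTG1 is chr12:92145847-92146096 on the minus strand.
RAP1B: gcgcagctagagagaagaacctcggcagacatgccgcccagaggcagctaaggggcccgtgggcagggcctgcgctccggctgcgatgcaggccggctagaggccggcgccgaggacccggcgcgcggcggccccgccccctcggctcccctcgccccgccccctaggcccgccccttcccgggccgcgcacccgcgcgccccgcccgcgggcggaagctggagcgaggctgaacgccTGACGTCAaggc
SCYL2: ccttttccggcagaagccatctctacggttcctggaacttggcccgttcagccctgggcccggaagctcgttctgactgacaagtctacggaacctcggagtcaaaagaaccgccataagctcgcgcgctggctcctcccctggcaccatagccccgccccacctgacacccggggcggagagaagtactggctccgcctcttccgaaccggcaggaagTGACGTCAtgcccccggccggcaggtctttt
BTG1: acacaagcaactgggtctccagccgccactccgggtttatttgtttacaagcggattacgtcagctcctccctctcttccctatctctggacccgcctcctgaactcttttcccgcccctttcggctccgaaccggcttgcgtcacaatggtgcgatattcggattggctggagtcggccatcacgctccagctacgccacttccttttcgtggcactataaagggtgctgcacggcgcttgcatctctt

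The CRE began 12 bases before the start of RAP1B and 31 bases before the start of SCYL2, where an ETS match (GGAAGT) overlaps it. Promoter windows of 300 bases (250 before and 50 after the start) were matched for 33 of the 38 genes and read on both strands. The CRE was present in 2 of the 33 (6.06%), against 1.98% of all 27305 promoters. The E-box CACGTG was in 3 (9.09%, against 7.43%), namely OSBPL8, ATP2B1 and PWP1. The ETS letters GGAAGT were in 11 (33.3%, against 23.2%), and a loose NF-kB pattern, a run of G and a run of C with any bases between, was in 20 (60.6%, against 58.0%). The AP-1 pattern TGANTCA was in 1, NUP37 (3.03%, against 7.76%), and the amino acid response pattern TGATGNAAN was in 0 (against 3.67%). These are matches of letters and not sites of binding.

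Along chromosome 12 the medians of the low stretch were nearer to 0 toward its borders. The median log2 fold change of KO over WT in windows of 5 Mb was -0.67 under CC-885 and -0.65 under DMSO at 65 to 70 Mb, and reached -1.17 under CC-885 and -1.11 under DMSO at 85 to 90 Mb. It was -0.44 under CC-885 and -0.47 under DMSO at 105 to 110 Mb, and -0.04 under CC-885 and -0.10 under DMSO in the next window. On the other side, the window of 60 to 65 Mb stood at -0.20 under CC-885 and -0.55 under DMSO. The run of windows with both medians below -0.3 therefore spanned 65 to 110 Mb, or 64 to 108 Mb with windows of 2 Mb. Windows with under 5 tested genes were passed over, so the run of 2 Mb windows has gaps. Among those passed over, the window of 72 to 74 Mb, with 2 tested genes, stood at 0.56 under CC-885 and 0.74 under DMSO. The others with tested genes inside the run lay below -0.3 under both treatments.

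**Figure D1:**
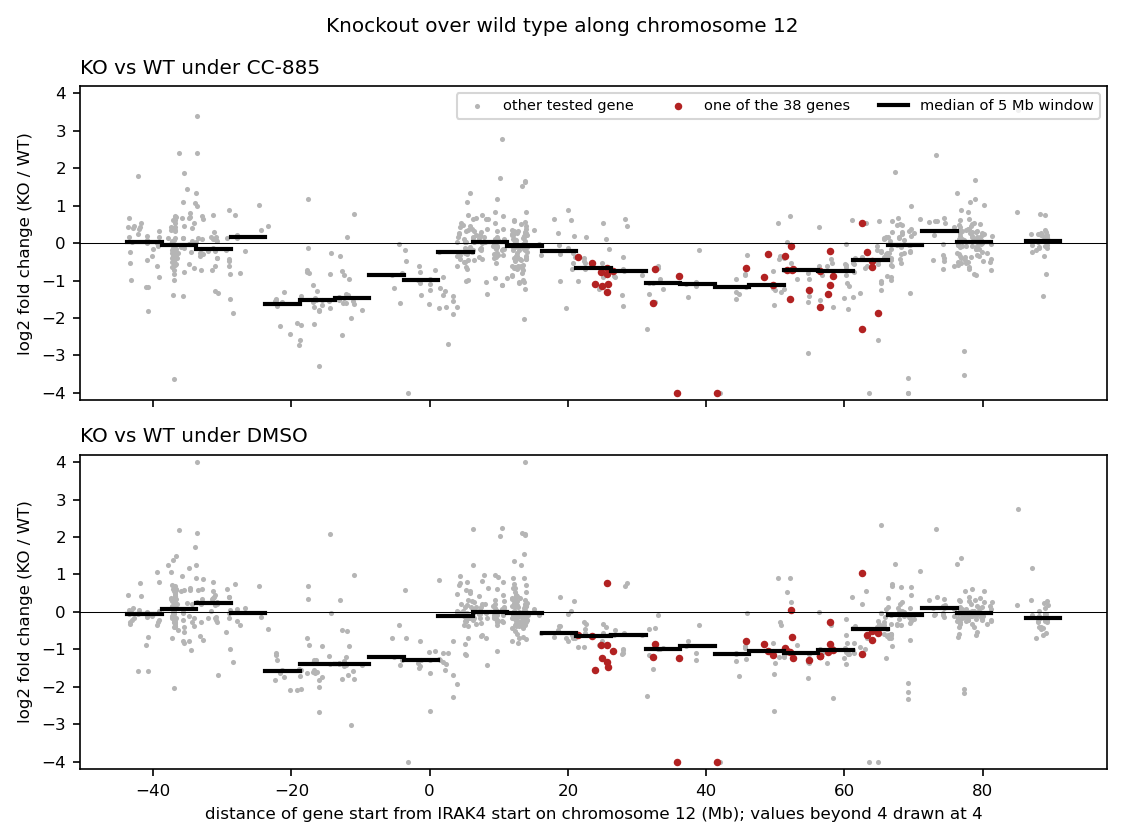
Log2 fold change of KO over WT for each tested gene of chromosome 12 against the distance of its start from the IRAK4 start in Mb, under CC-885 (above) and DMSO (below). Red points are the 38 genes, grey points other genes and black bars the medians of 5 Mb windows; the red points sit on the right-hand low run, a separate low run lies to the left around IRAK4, and most windows between them lie near 0, while that of 60 to 65 Mb stands at -0.20 under CC-885 and -0.55 under DMSO.

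Genes just inside and just outside the borders show how gradual the change was. Just inside the lower border LEMD3, an inner nuclear membrane protein, stood at -0.37 under CC-885 and -0.61 under DMSO, and IRAK3, a relative of IRAK4 that dampens Toll-like receptor signalling and is not among the 38, stood at -0.52 under CC-885 and -0.46 under DMSO. Just outside it, the kinase gene TBK1 stood at -0.54 under CC-885 and -0.66 under DMSO. Inside the upper border CORO1C, an actin-binding protein, was at -0.57 under both treatments. Outside it, USP30 was at -0.20 under CC-885 and -0.04 under DMSO, and ACACB was at -0.25 under CC-885 and -0.04 under DMSO.

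The low run was not unique. On chromosome 12 itself the 71 tested genes from 20 to 45 Mb, which include IRAK4, had medians of -1.44 under CC-885 and -1.38 under DMSO, and the 203 genes from 45 to 60 Mb between the runs had medians of -0.09 under CC-885 and -0.04 under DMSO. Over the genome, 48 of 548 windows of 5 Mb with at least 5 tested genes had medians below -0.5 under both treatments, of which 13 were on chromosome 12, 24 on chromosome 10 and 7 on chromosome 5. The 14194 tested genes placed on other chromosomes had medians of -0.01 under CC-885 and -0.06 under DMSO.

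The 38 genes stood at a median of 57.2% of the WT level under CC-885 (log2 -0.81) and 49.0% under DMSO (log2 -1.03). Without replicate 3 of the WT cells with CC-885 the median under CC-885 was -0.68. For 34 of them every KO library lay below every WT library under both treatments, where 20.0% of all tested genes did so. Since knockout level picked them, the comparison with other genes carries no weight. Log2 fold changes between -1.5 and -0.5 held for 24 of the 38 under CC-885 and for 31 under DMSO. The 101 other genes of the stretch had medians of -0.80 under CC-885 and -0.94 under DMSO, and 72 of them lay below WT in every library under both treatments. The stretch as a whole gave 0.517% ± 0.0124 of the counts in KO and 0.870% ± 0.0451 in WT cells with CC-885, and 0.619% ± 0.0560 in KO and 0.847% ± 0.0205 in WT cells with DMSO (SD, n = 3 libraries). Without LYZ, the share was 0.478% ± 0.0120 in KO and 0.802% ± 0.0344 in WT cells with CC-885, and 0.443% ± 0.0162 in KO and 0.748% ± 0.0166 in WT cells with DMSO (SD, n = 3 libraries).

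**Figure D2:**
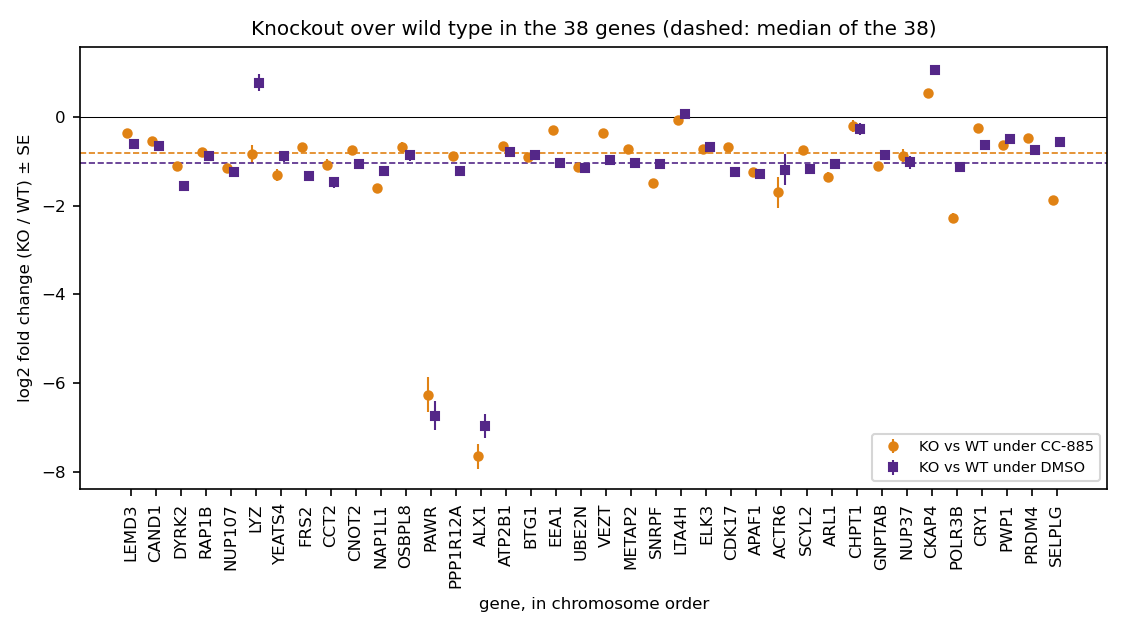
Log2 fold change of KO over WT ± SE (edgeR) for the 38 genes in chromosome order, under CC-885 (circles) and DMSO (squares), with dashed lines at the medians of -0.81 and -1.03. Most points lie near the dashed lines, PAWR and ALX1 lie below -6, and CKAP4 lies above 0 under both treatments.

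PAWR and ALX1 were all but absent from KO cells. PAWR encodes a pro-apoptotic protein and had 4 counts over the 3 KO libraries and 336 over the 3 WT libraries under CC-885, and 8 counts in KO and 862 in WT under DMSO. Scaled to library totals that is 1.21% of WT under CC-885 (95% exact Poisson interval of the KO count, 0.329 to 3.10%) and 0.928% under DMSO (0.401 to 1.83%), counting error only. PAWR stood at 0.0359, 0.0209 and 0.0210 CPM in KO and 1.73, 1.96 and 2.95 CPM in WT cells with CC-885, and at 0.0800, 0.0175 and 0.0596 CPM in KO and 4.98, 6.24 and 5.76 CPM in WT cells with DMSO. Every WT library lay far above every KO library.

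ALX1, a homeobox factor known for its part in craniofacial development, had 10 counts in KO and 2092 in WT cells with CC-885, and 13 in KO and 1607 in WT cells with DMSO. That is 0.486% of WT under CC-885 (0.233 to 0.893%) and 0.809% under DMSO (0.431 to 1.38%). It stood at 13.6, 13.9 and 13.7 CPM in WT cells with CC-885 and at 11.5, 9.87 and 10.5 CPM in WT cells with DMSO. No KO library exceeded 0.180 CPM. Between PAWR and ALX1 on the chromosome lies PPP1R12A, the targeting subunit of myosin phosphatase, which stood at 54.3% of WT under CC-885 and 42.9% under DMSO.

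CKAP4, a protein of the endoplasmic reticulum sheets that anchors microtubules, was the 1 gene of the 38 that was higher in KO cells under both treatments. It stood at 17.4, 17.8 and 18.8 CPM in KO and 13.4, 12.5 and 11.5 CPM in WT cells with CC-885, and at 62.5, 59.5 and 69.8 CPM in KO and 30.7, 30.2 and 31.7 CPM in WT cells with DMSO. The groups did not overlap under either treatment. KO cells held 145% of the WT level under CC-885 and 207% under DMSO, although its neighbour POLR3B stood at 20.6% under CC-885 and 45.7% under DMSO.

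LYZ, the bacterial wall enzyme of monocytes, stood on either side of WT depending on the drug. It was at 395, 399 and 392 CPM in KO and 583, 679 and 851 CPM in WT cells with CC-885, and at 1939, 2007 and 1111 CPM in KO and 964, 1019 and 967 CPM in WT cells with DMSO. Every KO library was below WT with CC-885 and above WT with DMSO, with replicate 3 of the KO cells with DMSO close to WT. The summed monocytic markers given above were also higher in KO than in WT cells with DMSO, and they were higher in KO with CC-885 too; their part in the LYZ levels was not tested. Most of that gap with CC-885 came from AZU1, a granule protein, at 1920 to 2079 CPM in KO and 441 to 612 CPM in WT cells. With CC-885, ELANE was at 371 to 392 CPM in KO and 237 to 293 CPM in WT cells. CD68 was at 293 to 308 CPM in KO and 155 to 164 CPM in WT cells with CC-885, and MPO overlapped between the genotypes. CSF1R, the receptor of macrophage growth factor, was lower in KO with CC-885, at 46.9 to 49.8 CPM against 63.1 to 75.7 CPM in WT cells. With DMSO it was higher in KO, at 240 to 252 CPM against 125 to 132 CPM in WT cells.

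LTA4H, which makes leukotriene B4, and CHPT1, an enzyme of phosphatidylcholine synthesis, lay near the WT level. LTA4H was at 32.2, 30.7 and 31.4 CPM in KO and 36.3, 34.4 and 28.8 CPM in WT cells with CC-885, and at 48.7, 52.4 and 41.6 CPM in KO and 51.2, 44.3 and 41.2 CPM in WT cells with DMSO. CHPT1 was at 7.37, 8.16 and 6.58 CPM in KO and 8.17, 7.39 and 9.87 CPM in WT cells with CC-885, and at 7.68, 7.80 and 9.22 CPM in KO and 8.14, 11.1 and 10.4 CPM in WT cells with DMSO. In both genes the KO and WT libraries overlapped under each treatment.

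The stretch outside the 38 held such extremes too. Among its other genes with a mean of at least 5 CPM in the higher group, the 5 highest by the mean of both log2 fold changes were PLXNC1, a semaphorin receptor, at 0.55 under CC-885 and 0.91 under DMSO, TRHDE, a peptidase of thyrotropin-releasing hormone, at 0.65 under CC-885 and 0.70 under DMSO, its antisense gene TRHDE-AS1, C12orf23 and the phosphatase gene SSH1, which stood at 0.59 under CC-885 and -0.32 under DMSO. The 5 lowest under the same limit were the antisense gene TMPO-AS1 and its partner TMPO, a protein of the nuclear lamina, at -1.56 under CC-885 and -1.32 under DMSO, PARPBP, a regulator of homologous recombination, at -1.70 under CC-885 and -2.30 under DMSO, KITLG, the ligand of the KIT receptor, at -1.36 under CC-885 and -1.70 under DMSO, and thioredoxin reductase TXNRD1 at -1.77 under CC-885 and -1.12 under DMSO. Counts of a gene and its antisense partner may be mixed, since strand use is not given. Of the genes left out by that limit, named after their values were seen, RASSF9, close to ALX1, stood at -5.87 under CC-885 and -4.76 under DMSO, and BTBD11 was lower than -4 under both treatments, so PAWR and ALX1 were not the only genes of the stretch with such low values. With almost no counts in KO cells, the size of these fitted values depends on edgeR's prior count. On the other side AMDHD1 stood at 0.74 under CC-885 and 0.90 under DMSO.

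**Figure D3:**
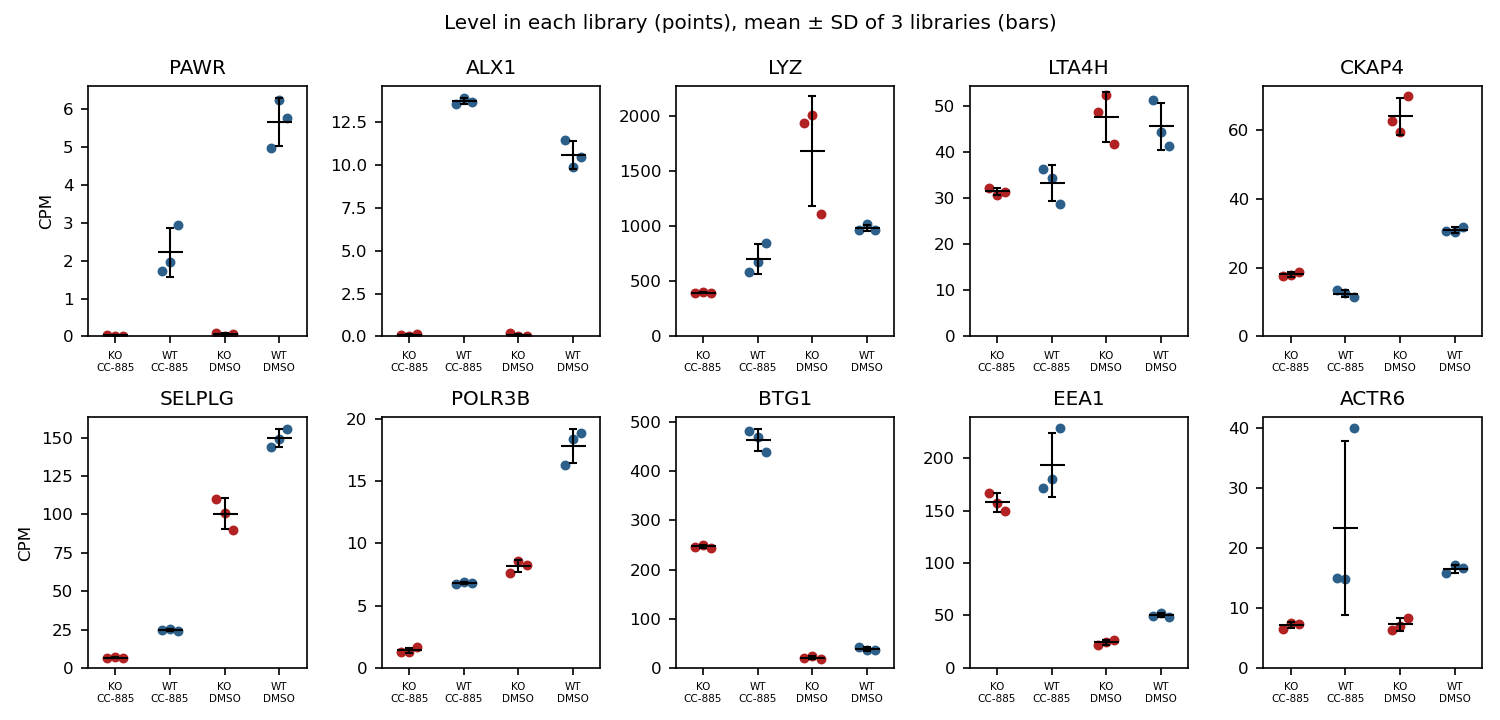
Level in CPM of 10 genes in each of the 12 libraries (points; red KO, blue WT), with the mean ± SD of 3 libraries, in the groups KO CC-885, WT CC-885, KO DMSO and WT DMSO. PAWR and ALX1 are near 0 in each KO library, CKAP4 is higher in KO, BTG1 and EEA1 are high with CC-885, SELPLG and POLR3B are lowest in KO with CC-885, and 1 WT library with CC-885 holds 40.1 CPM of ACTR6.

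The levels in KO cells are given here by role of the product, as a description, since the KO level chose the genes. The 3 myeloid products LYZ, LTA4H and SELPLG had a median of -0.83 under CC-885, where all 38 had -0.81. Under DMSO their median was 0.06, with LYZ at 0.78 and SELPLG at -0.57. All 4 genes of protein folding, ubiquitin and protein processing were lower in KO, with medians of -0.90 under CC-885 and -1.09 under DMSO. They are CCT2, a subunit of the TRiC chaperonin, UBE2N, which builds the ubiquitin chains used in Toll-like receptor signalling, METAP2, which removes initiator methionines, and CAND1, which exchanges cullin substrate receptors. UBE2N stood at 55.0, 57.0 and 57.0 CPM in KO and 111, 115 and 142 CPM in WT cells with CC-885, and at 60.3, 63.4 and 61.8 CPM in KO and 136, 140 and 138 CPM in WT cells with DMSO. Its KO level was thus 45.9% of WT under CC-885 and 44.8% under DMSO.

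The 6 genes of the nuclear pore, RNA processing and RNA synthesis were all lower as well, with medians of -1.01 under CC-885 and -1.06 under DMSO. NUP107 of the nuclear pore scaffold stood at 44.8% of WT under CC-885 and 42.4% under DMSO, its partner NUP37 at 54.6% and 49.1%, the deadenylase subunit CNOT2 at 60.1% and 48.1%, and the Sm ring protein SNRPF at 35.6% and 47.8%, with CC-885 given first each time. Of the 8 transcription, chromatin and growth control genes, 7 besides ALX1 stood between 30.7% and 84.2% of WT under CC-885 and between 43.2% and 64.6% under DMSO. The lowest of these under CC-885 was ACTR6, a subunit of the SRCAP remodeller, whose WT libraries held 15.1, 14.8 and 40.1 CPM with CC-885 against 6.57, 7.52 and 7.39 CPM in KO cells. Without replicate 3 of the WT cells with CC-885, its log2 fold change was -1.06 and not -1.70.

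APAF1, the core of the apoptosome, gave the same ratio under both treatments. It stood at 52.8, 47.2 and 47.6 CPM in KO and 121, 118 and 110 CPM in WT cells with CC-885, and at 44.97, 47.1 and 42.6 CPM in KO and 116, 106 and 105 CPM in WT cells with DMSO. The KO level was 42.2% of WT under CC-885 and 41.2% under DMSO. The 6 signalling genes were also all lower, with medians of -0.76 under CC-885 and -1.23 under DMSO. Of the 9 genes of membranes, lipids and trafficking, 7 lay below WT in every library under both treatments, where 20.0% of all tested genes did so. The others were CHPT1 and CKAP4. Among those 7, ARL1, a GTPase of the Golgi, stood at 39.1% of WT under CC-885 and 47.9% under DMSO, and GNPTAB, which tags enzymes for the lysosome, at 46.4% under CC-885 and 55.5% under DMSO. OSBPL8, a lipid carrier of the endoplasmic reticulum, stood at 62.2% of WT under CC-885 and 54.8% under DMSO.

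Partners of these products that are encoded elsewhere had medians nearer to 0 than the genes of the stretch. Those genes were chosen for their low KO level, so the gap was built into the choice and carries no weight. A set of 12 lists of complexes or pathways that hold 14 of the 38 genes name 97 partners outside the stretch, of which 95 were tested. The 14 genes had medians of -1.10 under CC-885 and -1.10 under DMSO. The partners had medians of -0.08 under CC-885, with 29 called higher and 36 lower, and -0.11 under DMSO, with 10 called higher and 30 lower, where 27.8% of all genes were called higher and 30.8% lower under CC-885 and 21.3% higher and 28.4% lower under DMSO. A log2 fold change below -0.5 was found in 13 partners under CC-885 and 10 under DMSO.

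**Figure D4:**
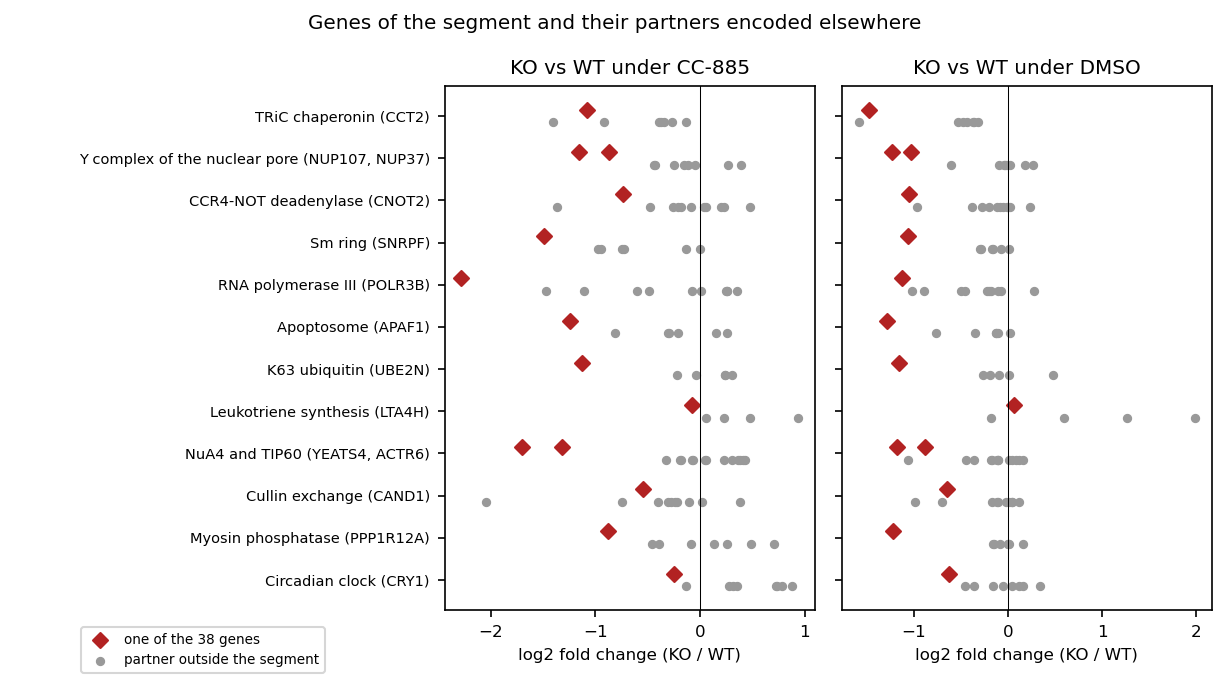
Log2 fold change of KO over WT under CC-885 (left) and DMSO (right) for genes of the stretch (red diamonds) and partners encoded outside it (grey dots), in 12 lists. In most lists the diamonds lie to the left of most dots, as the choice of these genes by low KO level favours. LTA4H lies near 0 under both treatments.

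Some partners outside the stretch were low in KO cells as well. All 7 other TRiC subunits were called lower under DMSO (median -0.43) and 6 of 7 under CC-885 (median -0.37). Among all genes 28.4% were called lower under DMSO and 30.8% under CC-885. The lowest of them, CCT5 on chromosome 5, stood at -1.40 under CC-885 and -1.59 under DMSO (adjusted p = 2.8e-11 and 1.68e-11, edgeR), next to -1.08 under CC-885 and -1.48 under DMSO for CCT2. POLR3A, the largest subunit of RNA polymerase III and the partner of POLR3B, lies on chromosome 10 and stood at -0.61 under CC-885 and -1.02 under DMSO (adjusted p = 5.84e-07 and 2.47e-09, edgeR). Chromosomes 5 and 10 hold 7 and 24 of the low windows given above, and whether CCT5 and POLR3A lie in them was not tested. The 6 other Sm proteins had a median of -0.73 under CC-885 and -0.16 under DMSO, with 3 called lower under CC-885 and 2 under DMSO. The count under DMSO is near the share of all genes.

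The leukotriene list went the other way. Around LTA4H, 3 of 4 partners were called higher in KO under DMSO and 1 under CC-885. ALOX5AP, the activating protein of 5-lipoxygenase, stood at 0.94 under CC-885 and 1.27 under DMSO (adjusted p = 1.11e-07 and 3.67e-09, edgeR), and ALOX15 stood at 0.47 under CC-885 and 1.99 under DMSO (adjusted p = 0.182 and 1.09e-05, edgeR). Of 8 tested clock genes beside CRY1, a repressor of the circadian loop, 7 were called higher in KO and 0 lower under CC-885. Under DMSO 1 of the 8 was called higher and 2 lower. CRY1 itself stood at -0.25 under CC-885 and -0.63 under DMSO. Among all genes 27.8% were called higher and 30.8% lower under CC-885, and 21.3% higher and 28.4% lower under DMSO.

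The response to CC-885 did not choose the 38 genes, although it shares the same libraries. In KO cells 15 of the 38 rose with CC-885, 13 fell and 10 did not pass the test, where 38.9% of all genes rose and 40.0% fell. In WT cells 14 rose, 15 fell and 9 did not pass, where 35.7% of all genes rose and 36.6% fell. The shares of the 38 are near those of all genes. Without replicate 3 of the WT cells with CC-885, 15 rose and 20 fell in WT cells. In both genotypes alike 13 rose and 12 fell, where 31.9% of all genes rose and 32.0% fell in both, and 0 were called in opposite directions. The median change was -0.08 in KO and -0.16 in WT cells.

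Of the 6 signalling genes, 5 rose with CC-885 in each genotype, where 38.9% of all genes rose in KO and 35.7% in WT cells (median of the 6, 1.72 in KO and 1.21 in WT): the adaptor FRS2 of fibroblast growth factor receptors, the myosin phosphatase subunit PPP1R12A, the cyclin-dependent kinase CDK17, the clathrin-binding pseudokinase SCYL2 and RAP1B, a small GTPase of integrin adhesion. SCYL2 stood at 166, 158 and 144 CPM in KO cells with CC-885 and 246, 253 and 283 CPM in WT cells with CC-885, against 26.3, 30.7 and 27.0 CPM in KO and 59.9, 68.2 and 62.8 CPM in WT cells with DMSO. It rose by 2.48 ± 0.08 in KO (adjusted p = 1.73e-13, edgeR) and 2.03 ± 0.08 in WT cells (adjusted p = 2.75e-12, edgeR). The treated libraries lay above all DMSO libraries in both genotypes.

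CDK17 stood at 41.6, 37.9 and 38.2 CPM in KO cells with CC-885 and 56.9, 59.1 and 72.8 CPM in WT cells with CC-885, against 5.82, 7.48 and 7.41 CPM in KO and 16.1, 16.7 and 16.3 CPM in WT cells with DMSO. RAP1B, whose promoter holds the CRE shown above, rose by 0.90 ± 0.08 in KO and 0.80 ± 0.08 in WT cells (adjusted p = 2.82e-08 and 1.64e-07, edgeR). The remaining signalling gene, the kinase DYRK2, had a change of 0.12 in KO (adjusted p = 0.21, edgeR) and fell by 0.35 in WT cells (adjusted p = 0.00121, edgeR).

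BTG1, an antiproliferative factor that recruits the deadenylase complex, had the largest rise of the 38 in both genotypes. It stood at 246, 250 and 245 CPM in KO cells with CC-885 and 482, 469 and 438 CPM in WT cells with CC-885, against 20.5, 25.04 and 17.8 CPM in KO and 42.2, 37.0 and 35.4 CPM in WT cells with DMSO. It rose by 3.55 ± 0.11 in KO and 3.60 ± 0.10 in WT cells (adjusted p = 1.17e-13 and 1.97e-13, edgeR). The difference between these responses was -0.05 with a 95% interval of -0.34 to 0.24, so KO cells held about the same fraction of the WT level with the drug (53.3%) as without it (55.2%).

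Among the membrane genes 5 of 9 rose and 3 fell in KO cells, where 38.9% of all genes rose and 40.0% fell, and 4 rose and 3 fell in WT cells, where 35.7% rose and 36.6% fell. EEA1, a tether of early endosomes, stood at 167, 157 and 149 CPM in KO cells with CC-885 and 172, 180 and 228 CPM in WT cells with CC-885, against 21.6, 24.8 and 26.9 CPM in KO and 49.6, 52.4 and 49.0 CPM in WT cells with DMSO. It rose by 2.69 ± 0.11 in KO and 1.94 ± 0.10 in WT cells (adjusted p = 2.47e-12 and 1.33e-10, edgeR). ATP2B1, the calcium pump of the plasma membrane, stood at 88.3, 82.2 and 80.0 CPM in KO cells with CC-885 and 123, 127 and 143 CPM in WT cells with CC-885, against 17.3, 18.3 and 19.2 CPM in KO and 30.7, 32.9 and 30.9 CPM in WT cells with DMSO. It rose by 2.19 ± 0.07 in KO and 2.06 ± 0.07 in WT cells (adjusted p = 1.51e-13 and 5.73e-13, edgeR). In both genes the treated libraries lay well above all DMSO libraries of the same genotype. LEMD3 rose less, by 0.58 in KO and 0.33 in WT cells (adjusted p = 1.87e-06 and 0.000581, edgeR). The genes that fell in both genotypes were CKAP4, by 1.83 ± 0.08 in KO and 1.31 ± 0.08 in WT cells (adjusted p = 2.89e-12 and 3.57e-10, edgeR), ARL1 and GNPTAB.

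All 3 myeloid products fell in KO cells and 2 of the 3 in WT cells, where 40.0% of all genes fell in KO and 36.6% in WT cells. SELPLG had the largest fall of the 38, at 6.60, 6.95 and 6.79 CPM in KO cells with CC-885 and 24.96, 25.2 and 23.9 CPM in WT cells with CC-885, against 110, 101 and 90.1 CPM in KO and 144, 149 and 156 CPM in WT cells with DMSO. It fell by 3.89 ± 0.08 in KO and 2.60 ± 0.07 in WT cells (adjusted p = 1e-15 and 4.94e-14, edgeR). LYZ fell by 2.09 ± 0.21 in KO cells (adjusted p = 4.31e-06, edgeR), and its change in WT cells was -0.48 ± 0.20 (adjusted p = 0.053, edgeR). That last value is called without replicate 3 of the KO cells with DMSO (adjusted p = 0.00071) and without replicate 3 of the WT cells with CC-885 (-0.64, adjusted p = 0.0297). LTA4H fell by 0.60 in KO and 0.46 in WT cells (adjusted p = 5.66e-05 and 0.00081, edgeR). The summed monocytic markers were lower with CC-885 in both genotypes, and their part in these falls was not tested.

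Genes of the pore, RNA processing and RNA synthesis fell in 4 of 6 cases in each genotype, where 40.0% of all genes fell in KO and 36.6% in WT cells, with CNOT2 rising in both. POLR3B, the second largest subunit of RNA polymerase III, stood at 1.26, 1.32 and 1.64 CPM in KO cells with CC-885 and 6.72, 6.92 and 6.78 CPM in WT cells with CC-885, against 7.62, 8.55 and 8.26 CPM in KO and 16.3, 18.3 and 18.9 CPM in WT cells with DMSO. It fell by 2.54 ± 0.12 in KO and 1.39 ± 0.10 in WT cells (adjusted p = 7.26e-12 and 2.81e-09, edgeR). Of its 10 partners in the enzyme, 6 were called higher and 3 lower in KO cells, where 38.9% of all genes rose and 40.0% fell, and 5 were called higher and 5 lower in WT cells, where 35.7% rose and 36.6% fell. NUP107 fell by 0.57 in KO and 0.65 in WT cells, and PWP1, a nucleolar protein of ribosomal RNA synthesis, by 0.64 in KO and 0.52 in WT cells. SNRPF fell by 0.99 in KO and 0.56 in WT cells, and of the 6 other Sm proteins 6 fell in KO and 4 in WT cells.

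Of the 8 transcription, chromatin and growth control genes, 3 rose and 3 fell in each genotype (37.5% each). These shares are near those of all genes, of which 38.9% rose and 40.0% fell in KO, and 35.7% rose and 36.6% fell in WT cells. CRY1 rose by 1.61 ± 0.10 in KO and 1.23 ± 0.09 in WT cells (adjusted p = 2.02e-10 and 6.63e-09, edgeR). ELK3, an ETS factor that mostly represses, fell by 1.32 ± 0.08 in KO and 1.28 ± 0.08 in WT cells (adjusted p = 3.07e-10 and 5.06e-10, edgeR). NAP1L1, a histone chaperone, and YEATS4, a reader of acetylated histones, also fell in both. PRDM4, a zinc finger factor, rose by 0.42 in KO cells (adjusted p = 0.000383, edgeR), with a change of 0.15 in WT cells (adjusted p = 0.123), and the difference of 0.26 was not called (adjusted p = 0.106). ALX1 rose by 0.37 ± 0.15 in WT cells (adjusted p = 0.0337, edgeR), a call that was lost when any 1 of 4 of the WT libraries was left out (adjusted p = 0.0548 to 0.119).

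Of the 4 protein processing genes METAP2 rose in both genotypes, by 0.77 in KO and 0.46 in WT cells (adjusted p = 1.91e-06 and 0.00041, edgeR). CCT2 fell by 0.54 in WT cells (adjusted p = 0.00178, edgeR), with a change of -0.14 in KO cells (adjusted p = 0.313) and a difference of 0.40 that was not called (adjusted p = 0.104). Without replicate 3 of the WT cells with CC-885 that difference was 0.62 (adjusted p = 7.11e-06), since CCT2 stood at 197, 205 and 299 CPM in those WT libraries, against 108, 110 and 113.9 CPM in KO cells with CC-885.

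Of the cell death genes, APAF1 did not pass the test in either genotype, at 0.13 in KO and 0.09 in WT cells (adjusted p = 0.0852 and 0.21, edgeR). Of its 6 apoptosome partners 5 rose in each genotype, where 38.9% of all genes rose in KO and 35.7% in WT cells. PAWR fell by 1.36 ± 0.19 in WT cells (adjusted p = 7.65e-06, edgeR), and with 4 and 8 counts in KO cells no response was detectable there. UBE2N changed by -0.14 in KO and -0.17 in WT cells (adjusted p = 0.117 and 0.0561, edgeR). This lack of a call depended on the processing. Without replicate 3 of the WT cells with CC-885 the change in WT cells was -0.29 (adjusted p = 6.12e-05, edgeR). With upper-quartile factors it was -0.28 in KO and -0.24 in WT cells (adjusted p = 0.0014 and 0.00464, edgeR).

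**Figure D5:**
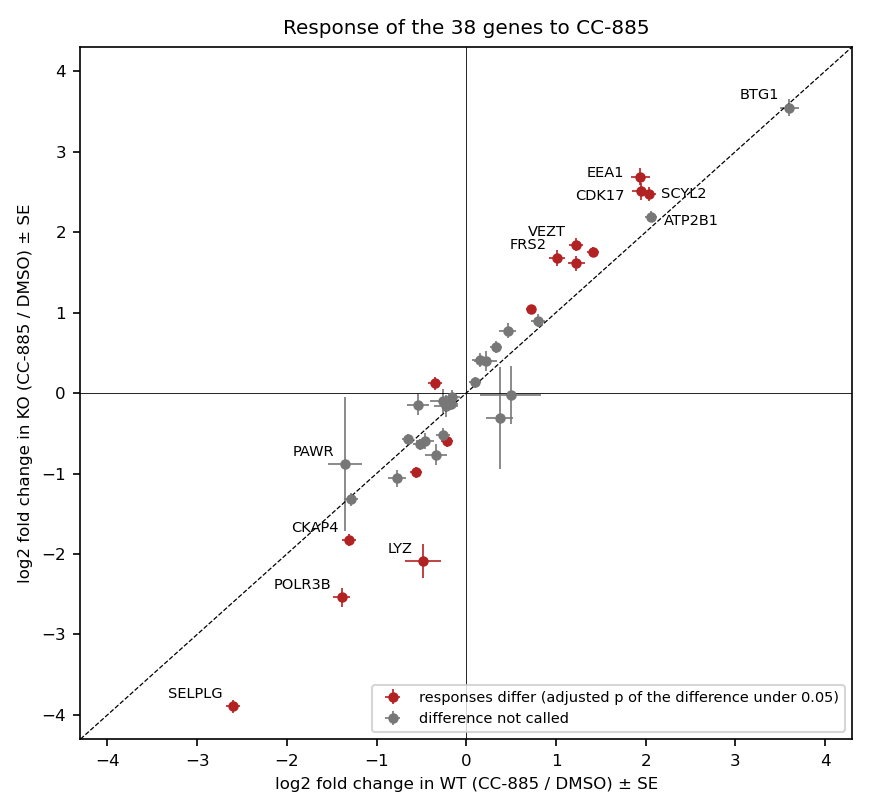
Log2 fold change with CC-885 in KO cells (vertical axis) against that in WT cells (horizontal axis) for the 38 genes, each ± SE; the dashed line marks equal responses. Red points are the 15 genes whose responses differed between genotypes, grey points the rest; SELPLG, POLR3B and LYZ lie below the line, EEA1, CDK17, FRS2 and VEZT above it, and BTG1 on it.

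The responses of KO and WT cells differed for 15 of the 38 genes, where 34.7% of all genes were called. Of these, 9 had a higher log2 response in KO (23.7%, where 17.9% of all genes did) and 6 a lower one (15.8%, where 16.8% did). The contrast is the KO response minus the WT response and uses the libraries that also chose the genes. Replicate 3 of the WT cells with CC-885 decides part of it: without that library 16 were called with a higher response in KO and 6 with a lower one, the added genes being LEMD3, CAND1, RAP1B, CCT2, OSBPL8, METAP2 and NUP37. With upper-quartile factors in place of TMM, all genes called split into 2168 higher and 3291 lower, against 2871 higher and 2691 lower, and the 38 genes gave 8 higher and 9 lower.

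Where a gene responded in both genotypes, the KO response was mostly the larger. Of the 13 genes that rose in both, 12 rose more in KO cells, and 8 of these differences were called. Of the 12 that fell in both, 11 fell more in KO cells, and 5 of these differences were called, with 0 called the other way in either set. The genome showed the same tilt: of 5108 genes that rose in both genotypes 75.7% rose more in KO cells, and of 5122 that fell in both 76.0% fell more in KO cells. Among those 5108 genes the difference was called for 1848 with the larger rise in KO and 257 with the smaller. Among the 5122 it was called for 1752 with the larger fall in KO and 165 with the smaller. The KO over WT level of a gene with a different response therefore moved with the drug. EEA1, for instance, stood at 81.5% of WT with CC-885 and 48.5% with DMSO, and SELPLG at 27.5% with CC-885 and 67.2% with DMSO. For EEA1 the KO over WT log2 fold change with CC-885 was -0.29. Without replicate 3 of the WT cells with CC-885 it was -0.16 and not called, and the difference in response was 0.89.

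The largest differences in response belonged to LYZ at -1.61 ± 0.29 (adjusted p = 0.00174, edgeR), SELPLG at -1.29 ± 0.10 (adjusted p = 6.13e-07, edgeR) and POLR3B at -1.15 ± 0.15 (adjusted p = 4.53e-05, edgeR). On the other side were EEA1 at 0.75 ± 0.14 (adjusted p = 0.000865, edgeR), FRS2 at 0.67 ± 0.13 (adjusted p = 0.00101, edgeR) and VEZT, an adherens junction protein, at 0.62 ± 0.11 (adjusted p = 0.000341, edgeR). FRS2 stood at 29.1, 27.4 and 27.6 CPM in KO cells with CC-885 and 41.0, 42.0 and 50.8 CPM in WT cells with CC-885, against 8.19, 9.02 and 8.997 CPM in KO and 21.0, 24.5 and 21.0 CPM in WT cells with DMSO. VEZT stood at 33.2, 31.5 and 33.8 CPM in KO cells with CC-885 and 41.1, 40.0 and 44.9 CPM in WT cells with CC-885, against 8.67, 9.79 and 8.94 CPM in KO and 18.8, 17.6 and 17.5 CPM in WT cells with DMSO. In both genes the KO libraries lay below the WT libraries with and without the drug, and nearer to them with it.

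For the genes with no called difference the intervals bound its size. The 95% interval of the difference was -0.08 to 0.34 for ATP2B1, -0.16 to 0.24 for APAF1 and -0.20 to 0.26 for UBE2N. It was wider for ACTR6, at -1.63 to 0.59, whose WT libraries with CC-885 disagreed. For PAWR and ALX1, whose KO counts were near the limit of detection, it was -1.82 to 2.77 and -2.09 to 0.72.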

How the data were processed

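The authors deposited 1 table of raw counts per gene symbol for 12 libraries of polyA RNA, with no normalization. The submitters' processing notes name featureCounts 1.5.2, HISAT2 2.0.5, FastQC 0.11.2 and the build GRCh38. The labels' extraction protocol names a mouse build instead, but the table's symbols are those of human genes. The sources used here give neither the strand setting nor the treatment of pairs and of reads with several matches, so overlapping genes and close copies are uncertain.

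The 38 genes and all gene lists were chosen with earlier results of these data known. edgeR 4.0.16 (R 4.3.3) was run with filterByExpr by group, TMM factors and 1 coefficient per group over all 12 libraries (robust quasi-likelihood, biological coefficient of variation 0.0899), which tested 16010 symbols. TMM centres changes on the bulk of genes, so changes are relative and not per cell. SEs were derived from the F statistic. The steps were tested on simulated data. Positions, and promoters for 33 of the 38 genes, come from RefSeq GRCh38.p14 by symbol; 1060 tested symbols had no position. DESeq2 1.42.0, other scalings, no filter, leaving out each library, library-name prefixes and replicate blocks were tried. Genes given library by library were those more than 1 log2 unit from the median of the 38 in the same direction under both treatments, those not called lower in KO, the 6 largest differences in response, the 3 largest rises and falls with CC-885 in each genotype, and LYZ, BTG1, APAF1 and UBE2N; ACTR6 was added after its values were seen, as were the border genes and partners named. Other genes of the stretch were the 5 lowest and 5 highest with at least 5 CPM in the higher group. Some items are not reported here.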

Additional observations from a re-analysis of the deposited data

Results flagged for a closer look

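The response to CC-885 differed between KO and WT cells for 15 of the 38 genes by the interaction test of edgeR (KO response minus WT response, log2). A higher response in KO was found for EEA1 (0.75), FRS2 (0.67), VEZT (0.62), CDK17 (0.56), DYRK2 (0.47), SCYL2 (0.44), CRY1 (0.38), PPP1R12A (0.34) and CNOT2 (0.32). A lower response in KO was found for LYZ (-1.61), SELPLG (-1.29), POLR3B (-1.15), CKAP4 (-0.52), SNRPF (-0.42) and NAP1L1 (-0.39). Among all genes 34.7% were called in this contrast.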

How the results depend on the processing

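For the 18 genes given library by library, no result called in either run reversed its direction under any alternative run. Of their values, 2009 kept their call or their lack of one, 27 gained a call and 14 lost one. Values called in neither run could change sign and still count among the 2009. For instance, ALX1 with CC-885 in KO ran from -1.05 to 0.80 as single libraries were left out. Single values of other genes were not counted there. Upper-quartile factors shifted all genes by 0.12 (KO over WT, DMSO) and -0.15 (CC-885 in KO) on the log2 scale, giving medians of the 38 of -0.91 and -0.22 there, and split the calls of all genes for KO over WT with DMSO into 4685 higher and 3036 lower, against 3415 and 4543. Library size alone gave a median of -0.17 for CC-885 in KO. Libraries with name prefix 51, among them 1 WT library with DMSO whose spread was assumed like the rest, gave -0.68 for KO over WT with CC-885 and -1.03 with DMSO. With the stretch widened by 5 Mb at each end, the medians of its genes were -0.60 with CC-885 and -0.65 with DMSO, and with it narrowed by 5 Mb at each end the median was -1.05 with DMSO; windows of 2 Mb put the borders at 64 and 108 Mb.

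Replicate numbers did not pair the samples throughout: deviations correlated from -0.26 to 0.44 with the same title number (8 of 18 pairs over 0.1) and from -0.28 to 0.44 with the same library number (6 of 11). KO and WT libraries with DMSO of the same title number gave 0.237, 0.152 and 0.213. A block by title number called 7994 of all genes for KO over WT with DMSO, against 7958, and 10 of the 38 higher in the interaction and 6 lower. A block by the number in the library name left 1 of the 38 called higher in KO with DMSO, a contrast that chose the genes; LYZ then stood at 0.68.

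Leaving out each library in turn gave, for KO over WT with CC-885, medians of -0.86 to -0.68 and 8444 to 9845 calls among all genes; with DMSO, -1.05 to -0.95 and 6822 to 9260. For CC-885 in KO it gave 14 to 16 of the 38 called higher, 13 to 15 lower, medians of -0.10 to -0.05 and 12129 to 13203 calls among all genes; in WT, 13 to 15 higher, 14 to 20 lower, -0.28 to -0.092 and 10995 to 11842. For the interaction it gave 8 to 16 higher, 6 to 7 lower, 0.04 to 0.18 and 4715 to 6872. The values of -0.68, -0.28 and 16 are those without replicate 3 of the WT cells with CC-885; the cause of the other shifts was not tested. Counts under 10 in KO cells limit PAWR, and 1 library the precision of ACTR6. The scaling without chromosomes 5, 10 and 12 was chosen after seeing the data; it moved the medians of the 38 by less than 0.0972, the spread between libraries (SD), and split the interaction calls of all genes into 2292 higher and 3183 lower, against 2871 and 2691.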
